A study of Mus musculus with 3 samples.

Results

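A set of 10 genes for secreted products of the Paneth cell was followed through scRNA-seq libraries of mouse intestinal crypt epithelium: the alpha-defensins Defa17, Defa21, Defa24, Defa29, Defa30, Gm14851, AY761184 and Gm7861, the lysozyme Lyz1 and the pentraxin-like gene Mptx2. They were chosen by symbol as named products of Paneth granules, and all 10 of the 10 symbols were found among the 51912 genes of the count tables. Only cells with at least 1000 detected genes and at most 15% of UMIs (unique molecular identifiers, 1 per counted transcript) from mitochondrial genes were used. Arid3a cKO mice carried VillinCreERT2 and Arid3a fl/fl, so that tamoxifen removed the transcription factor ARID3A wherever the Villin promoter drives the recombinase, which is the intestinal epithelium and not Paneth cells alone. WT mice carried VillinCreERT2 without the floxed alleles. Both received tamoxifen at 8 to 10 weeks of age and were harvested 1 month after the first injection, and live Epcam+ CD45- CD31- crypt cells were sorted and sequenced by the 10x 3′ method. There were 2 Arid3a cKO libraries and 1 WT library, so the spread between WT mice was not measured.

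Paneth cells sit at the base of the small intestinal crypt between the stem cells and discharge granules of antimicrobial proteins into the crypt lumen. Alpha-defensins, called cryptdins in the mouse, are short cationic peptides that damage microbial membranes and are cut from longer precursors by the protease Mmp7. Lyz1 encodes the Paneth lysozyme, which cleaves bacterial cell wall peptidoglycan. Mptx2 encodes a secreted mucosal pentraxin. A goblet cell, which secretes mucin, and a Paneth cell both arise from secretory progenitors of the crypt.

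The 8 alpha-defensin genes lie on chromosome 8 of GRCm38 (GENCODE M21) between 21025545 and 21735471. Defa24 (8:21734494-21735471, + strand), Defa30 (8:21134642-21135598, +), Defa17 (8:21655780-21656735, +) and Defa21 (8:21025545-21026516, +) are of the cryptdin type. Gm14851 (8:21095074-21096050, - strand), Defa29 (8:21325887-21327020, -), Gm7861 (8:21593375-21594508, -) and AY761184 (8:21702519-21703645, -) are of the cryptdin-related type with more cysteines. Each has 2 exons, with a coding part of 279 bases in the cryptdin type and 348 bases in the related type. Lyz1 lies at 10:117287797-117292868 (-) and Mptx2 at 1:173274382-173277777 (-). Defa24 and Defa30 were the 2 most abundant members and parted from each other in single cells, as described further on, so their whole coding sequences are shown from 5′ to 3′ with the 4 differing bases of 279 in capitals.
Defa24: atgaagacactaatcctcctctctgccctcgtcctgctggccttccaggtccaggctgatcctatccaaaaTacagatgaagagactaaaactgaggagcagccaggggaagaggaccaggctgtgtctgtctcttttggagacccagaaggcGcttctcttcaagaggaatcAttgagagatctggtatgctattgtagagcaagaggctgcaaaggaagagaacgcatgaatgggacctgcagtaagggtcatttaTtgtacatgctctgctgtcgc
Defa30: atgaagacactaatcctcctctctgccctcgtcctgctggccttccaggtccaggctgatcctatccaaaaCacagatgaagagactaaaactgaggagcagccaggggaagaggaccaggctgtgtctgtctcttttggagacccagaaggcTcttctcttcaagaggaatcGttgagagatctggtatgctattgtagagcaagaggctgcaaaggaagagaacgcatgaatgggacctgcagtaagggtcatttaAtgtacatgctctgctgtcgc
The other 6 alpha-defensins are shown by the last 105 coding bases, all in the second exon, from the end that encodes the mature peptide. These stretches need not cover the whole mature peptide. Capitals mark the codons TGT and TGC read in frame, which encode cysteine.
Defa17: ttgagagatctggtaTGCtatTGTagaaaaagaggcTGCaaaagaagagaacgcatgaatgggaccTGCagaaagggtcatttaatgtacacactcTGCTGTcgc
Defa21: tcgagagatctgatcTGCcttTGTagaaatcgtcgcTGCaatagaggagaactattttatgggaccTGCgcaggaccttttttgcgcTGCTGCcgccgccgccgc
AY761184: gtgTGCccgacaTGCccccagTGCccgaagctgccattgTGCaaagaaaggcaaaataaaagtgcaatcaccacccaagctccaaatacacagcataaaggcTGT
Defa29: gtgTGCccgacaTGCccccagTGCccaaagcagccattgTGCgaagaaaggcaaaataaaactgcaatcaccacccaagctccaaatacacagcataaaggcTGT
Gm14851: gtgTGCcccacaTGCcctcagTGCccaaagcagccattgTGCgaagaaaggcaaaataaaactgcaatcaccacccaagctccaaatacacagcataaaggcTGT
Gm7861: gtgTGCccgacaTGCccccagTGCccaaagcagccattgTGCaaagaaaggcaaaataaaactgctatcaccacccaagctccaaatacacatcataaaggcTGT
The cryptdin-type genes carried 6 such codons in the whole coding sequence and the cryptdin-related genes 11, of which only 5 lie in each stretch shown. Coding identity was 98.6% between Defa24 and Defa30 and 97.4% between Defa29 and Gm14851, and fell to between 61.5% and 65.3% between the types. These values count the extra bases of the longer type as differences. Over the aligned bases alone, identity between the types was 76.7% to 83.6%. Defa21 had 80.6% to 81.9% with the other cryptdin-type genes by the first measure. Close identity bears on counting, because a read that matches several genes cannot be assigned. Of all 90-base windows of the annotated transcript, 100% were found in no other gene's transcript for Defa24 and AY761184, 95.5% for Defa30, 86.6% for Defa29 and 78.6% for Gm14851. The share was 54.7% for Defa21, which shared windows with Defa22. It was 9.09% for Defa17, which shared 280 of 308 windows with Defa3, and 4.32% for Gm7861, which shared 399 of 417 with Gm7849, and the counts of these 2 genes are the least certain. Lyz1 and Mptx2 had 96.3% and 93.9%. Over the last 211 windows, nearest the 3′ end, the share was 99.5% for Defa29, 98.6% for Defa30, 82.0% for Gm14851 and 61.1% for Defa21. Defa17 had 13.3% and Gm7861 8.53% there.

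The limits kept 2134 and 1550 Arid3a cKO cells and 1910 WT cells, with 58169310 to 70922480 UMIs per library and median depths of 29895 to 35764 UMIs per cell. The kept cells were 31.2% and 22.5% of the Arid3a cKO barcodes and 16.2% of the WT barcodes. Of the 4711 and 5343 barcodes left out in Arid3a cKO and 9906 in WT, 4543, 5209 and 9361 were over the mitochondrial limit. Beyond an alternative with looser limits, the effect of this uneven loss on the comparisons was not tested. Arid3a itself was at 0.592 and 0.894 CPM (UMIs of a gene scaled to a total of 1e6 UMIs) in the Arid3a cKO libraries and at 2.57 CPM in WT, and had no UMI in the Paneth-like cells of any library, so its loss was not checked in these cells. Libraries shared between 11 and 18 cell barcodes, of which at most 2 were kept in both libraries of a pair. Cells were clustered without the 10 members and without any other alpha-defensin, so the members played no part in defining a class. Of 12 clusters, the one with 80 cells had 7 of 9 Paneth markers that are not members among its top 10 genes, led by Itln1 and Ang4, and is called Paneth-like. It had a median depth of 4.16 times that of the cells' own libraries, and no UMI of the 8 immune or 5 stromal marker genes. The cluster held 28 of 1910 WT cells (1.47%, 95% exact binomial interval 0.976% to 2.11%). It held 34 of 2134 cells (1.59%, 1.11% to 2.22%) in the first Arid3a cKO library and 18 of 1550 (1.16%, 0.690% to 1.83%) in the second. The intervals overlapped and the WT share lay between the Arid3a cKO shares. These intervals and those that follow cover counting error only.

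The members dominated the RNA of Paneth-like cells. They made up 72.3% and 82.3% of all Paneth-like UMIs in the Arid3a cKO libraries and 78.0% in WT. The cluster held 98.1%, 97.1% and 96.8% of each library's member UMIs in the order Arid3a cKO 1, Arid3a cKO 2 and WT, which is the order of every set of 3 values below. Values are UMI counts near the transcript's 3′ end and are not scaled by transcript length.

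Among the cryptdin-type genes, Defa24 was the most abundant member in every library, with 35.5%, 38.4% and 34.4% of Paneth-like UMIs. Defa30 followed with 13.6%, 16.3% and 18.6%, so both Arid3a cKO libraries lay below WT. Defa17 was at 3.47%, 4.18% and 3.94%, and WT lay between the Arid3a cKO libraries. Defa21 was the lowest of the 8 member defensins at 0.296%, 0.201% and 0.485%, with both Arid3a cKO libraries below WT. That WT value rested largely on 1 cell, which held 9788 of the 15494 Defa21 UMIs of the WT Paneth-like cells. Without the cell with the most Defa21 in each library the levels were 2190, 1782 and 1904 CPM, and WT lay between the Arid3a cKO libraries.

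Among the cryptdin-related genes, AY761184 was the most abundant at 6.37%, 7.34% and 6.89% of Paneth-like UMIs. Defa29 was at 3.17%, 4.32% and 3.87% and Gm7861 at 1.104%, 1.41% and 1.24%. WT lay between the Arid3a cKO libraries for these 3 genes. Gm14851 was at 2.92%, 3.29% and 3.86%, lower in both Arid3a cKO libraries than in WT.

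The non-defensin members differed from each other. Lyz1, the lysozyme, was at 5.31%, 6.62% and 4.10% of Paneth-like UMIs, higher in both Arid3a cKO libraries than in WT. Mptx2, the pentraxin, was at 0.599%, 0.285% and 0.605%, so Arid3a cKO 1 matched WT closely and the lower mean of the Arid3a cKO group came from Arid3a cKO 2. Between the Arid3a cKO libraries Mptx2 thus varied by more than the first of them differed from WT.

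**Figure D1:**
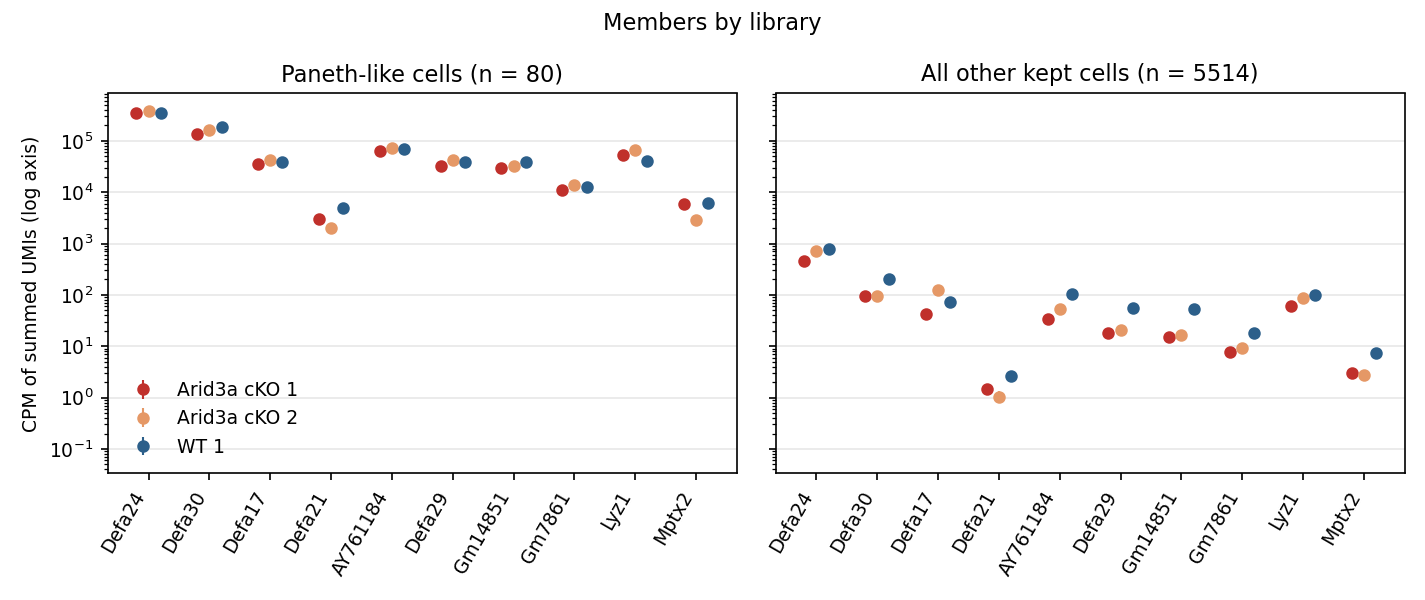
CPM of each member in the summed UMIs of Paneth-like cells (left) and of all other kept cells (right), on a shared log axis, with 1 point per library and 95% Poisson intervals that are mostly smaller than the points. In Paneth-like cells Defa24 stands at the top and Defa21 and Mptx2 at the bottom in all 3 libraries, and the levels in other cells are at most 770 CPM.

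No member passed the test between Arid3a cKO and WT in Paneth-like cells, where edgeR's quasi-likelihood test with Benjamini-Hochberg adjustment called 18 of 7508 genes (0.240%). By the order of the libraries alone, 4 members (Mptx2, Defa21, Defa30 and Gm14851) were lower in both Arid3a cKO libraries, as were 11.2% of the 1210 genes with a mean of at least 20 CPM, and 2 (Lyz1 and Defa24) were higher in both, as were 15.4%. The 10 members had a median log2 fold change (Arid3a cKO minus WT) of 0.14, beside 0.02 over all genes tested, and 0 of the 10 had an unadjusted p under 0.05. The median of the members depended on the normalization. TMM normalization turned totals of 3598759, 2545675 and 3197307 UMIs into effective totals of 4876326, 1810937 and 3268242, moving the Arid3a cKO libraries in opposite directions. With totals that leave out members and alpha-defensins in place of TMM, the median was 0.009, beside -0.04 over all genes tested. In the main fit standard errors ran from 0.77 for Defa21 to 1.85 for Defa24 on the log2 scale. The fitted changes were all smaller than the SE except that of Defa21 (-0.92, SE 0.77). With 1 WT library the fit assumes that WT varies like the Arid3a cKO libraries. In this fit the trend over genes alone set the spread (infinite prior degrees of freedom). The SEs thus do not measure the spread of each gene between libraries. DESeq2 also called 0 members there and gave 1 an unadjusted p under 0.05.

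Summed over all kept cells, 0 of 10 members were called, where 116 of 16670 genes were (0.696%). Defa21 had a log2 fold change of -1.02 (SE 0.23, edgeR adjusted p = 0.11), Gm14851 of -0.41 (SE 0.10, adjusted p = 0.13), Defa30 of -0.41 (SE 0.12, adjusted p = 0.23) and Lyz1 of 0.43 (SE 0.11, adjusted p = 0.20). These 4 had an unadjusted p under 0.05. DESeq2 called 3 of them: Gm14851 (adjusted p = 0.027), Defa30 (adjusted p = 0.035) and Lyz1 (adjusted p = 0.035), and did not call Defa21, whose WT sum includes the single cell with 9788 UMIs. Defa24 was level, with CPM of 18466, 17465 and 18274 and a log2 fold change of 0.01 (SE 0.13). A sum over all kept cells does not by itself tell fewer Paneth cells from less RNA per Paneth cell. The Paneth-like share of cells and the levels within Paneth-like cells are given apart above. Of the members, 8 were lower in both Arid3a cKO libraries than in WT and 1 was higher, where 32.8% of the 5336 genes with a mean of at least 20 CPM were lower in both and 43.0% higher in both. None of the members reached a log2 ratio of 1 to WT in both Arid3a cKO libraries, which 0.356% of those genes did.

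**Figure D2:**
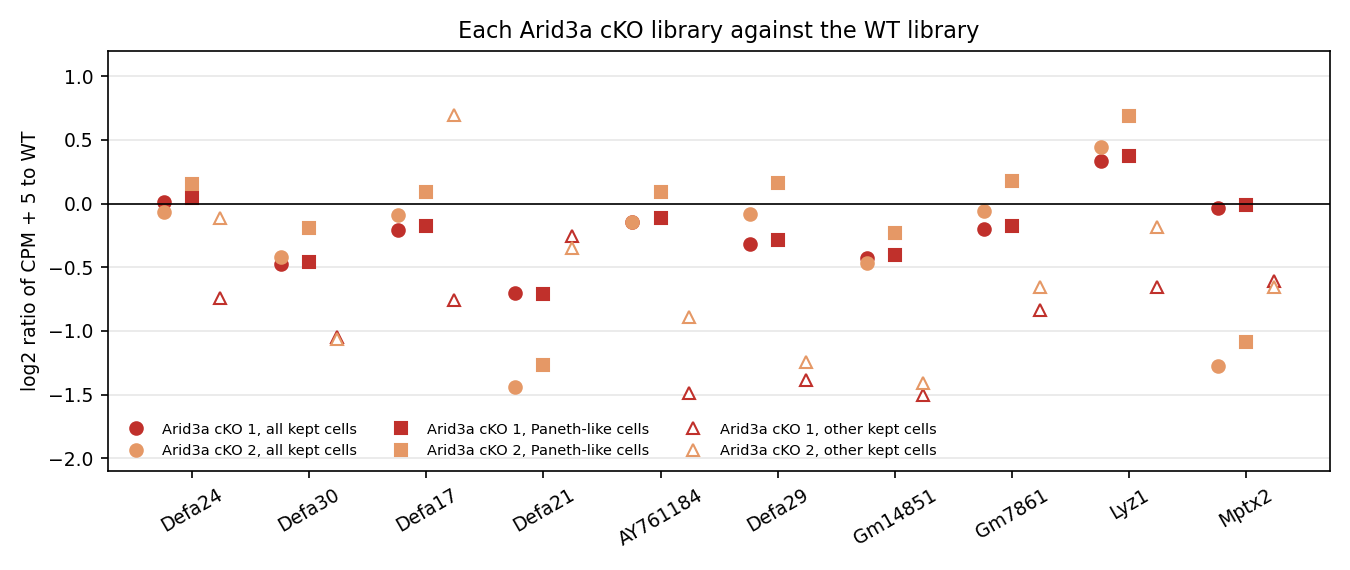
log2 ratio of CPM + 5 in each Arid3a cKO library to the WT library for each member, in all kept cells (circles), Paneth-like cells (squares) and all other kept cells (open triangles). Lyz1 lies above 0 and Defa30 and Gm14851 below 0 in all kept cells and Paneth-like cells of both Arid3a cKO libraries, and Defa29, Defa30 and Gm14851 lie below -1 in the other cells.

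The make-up of the member UMIs removes the number and depth of Paneth-like cells from the comparison. Of the member UMIs in Paneth-like cells, Defa30 took 18.8%, 19.8% and 23.9%. The mean of the Arid3a cKO libraries minus WT was -4.60 percentage points, against an SD of 0.756 between the Arid3a cKO libraries. Gm14851 took 4.04%, 3.999% and 4.95%, and Lyz1 took 7.34%, 8.04% and 5.26%, a mean difference of 2.43 points against an SD of 0.497. Defa24 took 49.1%, 46.6% and 44.1%. AY761184 was level at 8.81%, 8.92% and 8.84%, and Defa17 at 4.80%, 5.08% and 5.04%. Without the 3 cells of Arid3a cKO 1 that had almost no Defa30, described further on, Defa30 took 19.9% in that library. These are shares of a whole, so a lower Defa30 share raises the others, and with 1 WT library the differences have no test against the spread between WT mice.

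The make-up was also taken in cells and barcodes that were not Paneth-like. Defa30 took a smaller share in both Arid3a cKO libraries than in WT in 6 of the 8 other cell classes, but not in TA-like cells (22.4%, 13.6% and 20.5%) or in the unnamed cluster of 58 cells (18.2%, 21.7% and 9.13%). Lyz1 took a larger share in both in 7 of 8, but a smaller one in goblet-like cells (6.49%, 4.93% and 9.75%). In enterocyte-like cells, where all 10 members together were at 332, 294 and 414 CPM, Defa30 took 17.0%, 18.5% and 23.2% of the member UMIs and Lyz1 11.2%, 12.9% and 7.47%. In the barcodes outside the limits on cells, Defa30 took 18.2%, 20.2% and 21.8% and Lyz1 9.32%, 9.48% and 6.99%. The sets come from the same 3 libraries and are no further replicates.

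**Figure D3:**
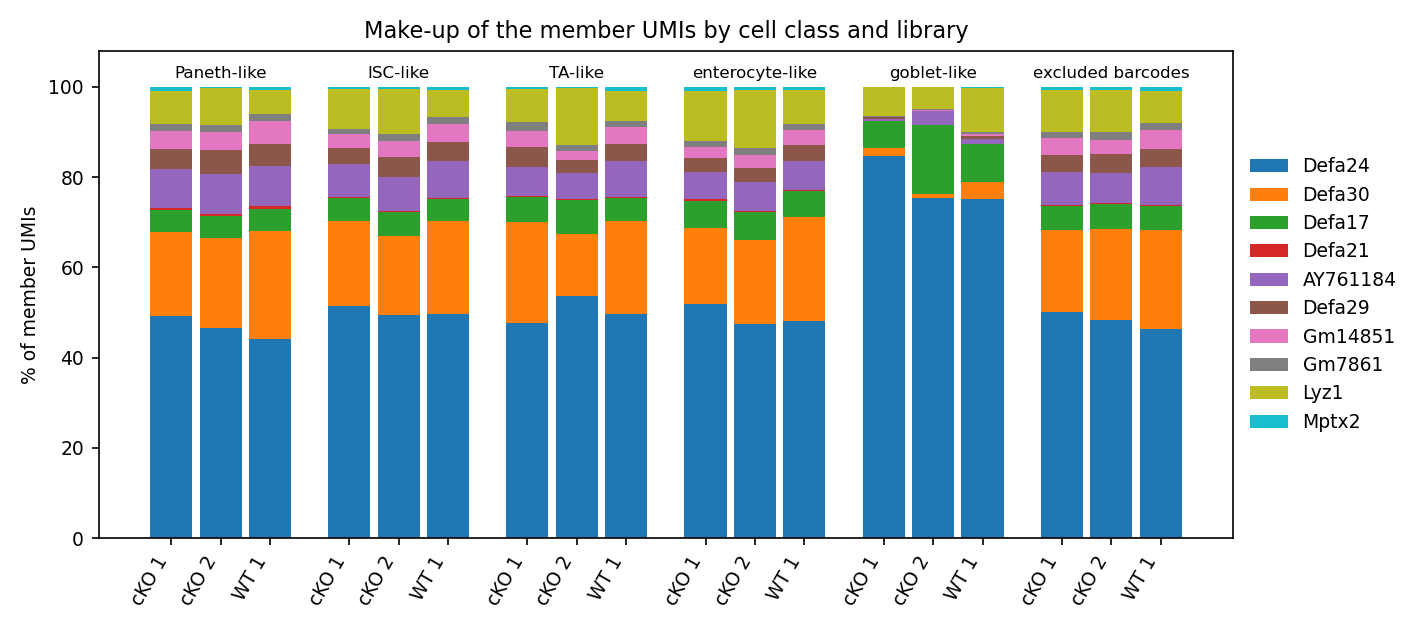
Stacked bars of the percentage of member UMIs taken by each of the 10 members, for 5 cell classes and for the barcodes outside the limits, with 1 bar per library. Goblet-like cells stand apart, with Defa24 at 75.2% to 84.8%, while Defa30 takes 17.0%, 18.5% and 23.2% in enterocyte-like cells.

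Within the Paneth-like cluster the members varied to very different degrees from cell to cell. Over all 80 cells, members made up a median of 67.6%, 84.0% and 80.7% of a cell's UMIs, and over 66 cells of at least 20000 UMIs the medians were 74.1%, 84.5% and 83.6%. By its share of a cell's member UMIs Defa24 was the steadiest, at 37.5% to 62.8% with a coefficient of variation of 10.7% over these 66 cells. Its counts in these cells ran from 8047 to 91380 UMIs. The coefficients here are of shares of a fixed sum, of which Defa24 was the largest part. Most other members had coefficients of variation between 29.4% for Defa29 and 48.8% for Defa17. Those of Defa17 and Defa29 rested on Arid3a cKO 1, since Defa17 had 67.8%, 13.9% and 22.3% and Defa29 43.0%, 19.0% and 13.2% in the single libraries. Without the 3 cells of almost no Defa30 they were 28.8% and 19.7% over 63 cells. Mptx2 and Defa21 stood apart with 113% and 211.2%, and with 109% and 205% without those cells. Mptx2 ran from 0 to 3421 UMIs per cell, with fewer than 10 in 8 of the 66 cells and at least 1% of member UMIs in 16. Defa21 ran from 0 to 9788 UMIs, with fewer than 10 in 11 cells and a median of 175. Cells with few UMIs of either gene were present in every library, the lowest having at most 6 in each. The upper end differed between libraries. Mptx2 reached 1% of member UMIs in 7, 1 and 8 cells and Defa21 in 2, 0 and 2. Coefficients of variation were 133%, 113% and 78.4% for Mptx2 and 163%, 91.2% and 230% for Defa21. The WT cell with 9788 UMIs held 31.3% of the Defa21 UMIs of all 80 cells.

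The shares of Defa29 and Gm14851, both cryptdin-related, were positively correlated over the 66 cells (Spearman rho 0.59), as were those of Defa30 and Gm14851 (0.54) and AY761184 and Gm7861 (0.46). Defa24 and Defa30 were opposed (-0.82), as were Defa30 and AY761184 (-0.51) and Lyz1 and Gm14851 (-0.57). These are descriptions across cells of 3 libraries, whose points share libraries and a fixed sum. Defa29 and Gm14851 also share 56 transcript windows, and the effect of reads that match both was not tested.

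**Figure D4:**
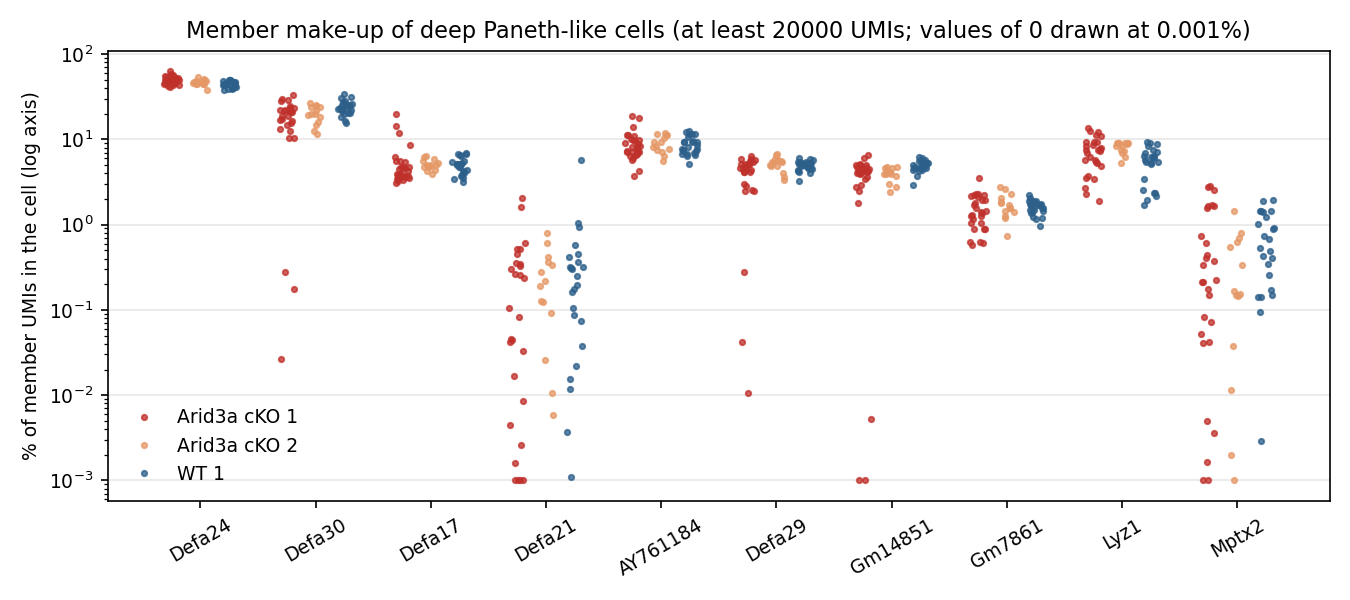
Percentage of a cell's member UMIs taken by each member in 66 Paneth-like cells of at least 20000 UMIs, on a log axis, with 1 point per cell coloured by library and values of 0 drawn at 0.001%. Defa24 forms a tight band, Defa21 and Mptx2 spread over more than the rest, and 3 cells of Arid3a cKO 1 lie far below the others for Defa30, Defa29 and Gm14851.

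Defa24 and Defa30, which share 275 of 279 coding bases as shown above, were both present in most cells with many member UMIs and parted in a minority. The share of Defa30 in the sum of Defa24 and Defa30 was taken over the 125 kept cells with at least 500 member UMIs, a limit set after the values were seen. It was at most 0.965% in 21 cells and at least 12.8% in the other 104, with no cell between. Of the 79 Paneth-like cells in this set, 76 had 15.8% to 47.5%, with a median of 31.8%. The other 3 had 0.0509%, 0.296% and 0.486%.

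Those 3 cells were all from Arid3a cKO 1, and had 39239, 78153 and 126605 UMIs. Their Defa24 counts were 9825, 26812 and 49481 UMIs, while their Defa30 counts were 5, 131 and 147. Gm14851 had 0 or 1 UMI in each, Defa21 had none, and Defa29 had 8, 5 and 232. Yet AY761184, of the same cryptdin-related type, had 3336, 6514 and 15922 UMIs, and Lyz1 had 1448, 5818 and 11435. The split thus ran across the sequence types, with Defa24, Defa17, AY761184, Gm7861 and Lyz1 high and Defa30, Defa29, Gm14851 and Defa21 low in the same cells. The summed CPM of 10 goblet markers was 124468, 136105 and 17645 in these cells, against a median of 9536 and a highest value of 45724 in the other 76. The 9 Paneth markers were at 44191, 25719 and 49895 CPM, beside 16130 to 65772 CPM in the other 76. With 3 cells in 1 library, no difference between genotypes can be read from them.

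All 16 goblet-like cells with at least 500 member UMIs fell on the same side. They came from every library, with 5 of 143 goblet-like cells of WT (3.50%, exact binomial 95% interval 1.14% to 7.97%), 5 of 126 (3.97%, 1.30% to 9.02%) of the first Arid3a cKO library and 6 of 125 (4.80%, 1.78% to 10.2%) of the second. Members made up 0.687% to 23.7% of the UMIs of these cells. Defa24 ran from 489 to 9429 UMIs per cell with a median of 1122, and took 81.8% of their member UMIs. Defa17 ran from 0 to 2213 and Lyz1 from 0 to 349. Defa30 had 0 to 19 UMIs per cell, Defa29, Gm14851, Mptx2 and Defa21 had 0 or 1, and AY761184 had 1014 in 1 cell and at most 9 in the rest. The 10 goblet markers were at 15295 to 524923 CPM in these cells, with a median of 135432 against 282611 in the other goblet-like cells. The 9 Paneth markers were higher, with a median of 4229 CPM and up to 45913, against a median of 724. Scrublet marked 1 of the 16 as a doublet. In the remaining 378 goblet-like cells the members had a median of 12 UMIs per cell.

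ISC-like and TA-like cells with at least 500 member UMIs mostly fell on the other side. Of 24 such cells, 22 had a Defa30 share of 13.4% to 43.1%, with a median of 28.7% and with Defa24 at 48.5% and Defa30 at 20.4% of their member UMIs, beside 46.4% and 21.3% in the 76 Paneth-like cells. Goblet markers were at 155 to 2281 CPM in these 22 cells. The remaining 2 had 0.141% and 0.623%, and goblet markers at 9995 and 28397 CPM. Scrublet marked 2 of the 22 cells and neither of the 2. Whether a cell held a second cell's RNA was not tested beyond these values.

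**Figure D5:**
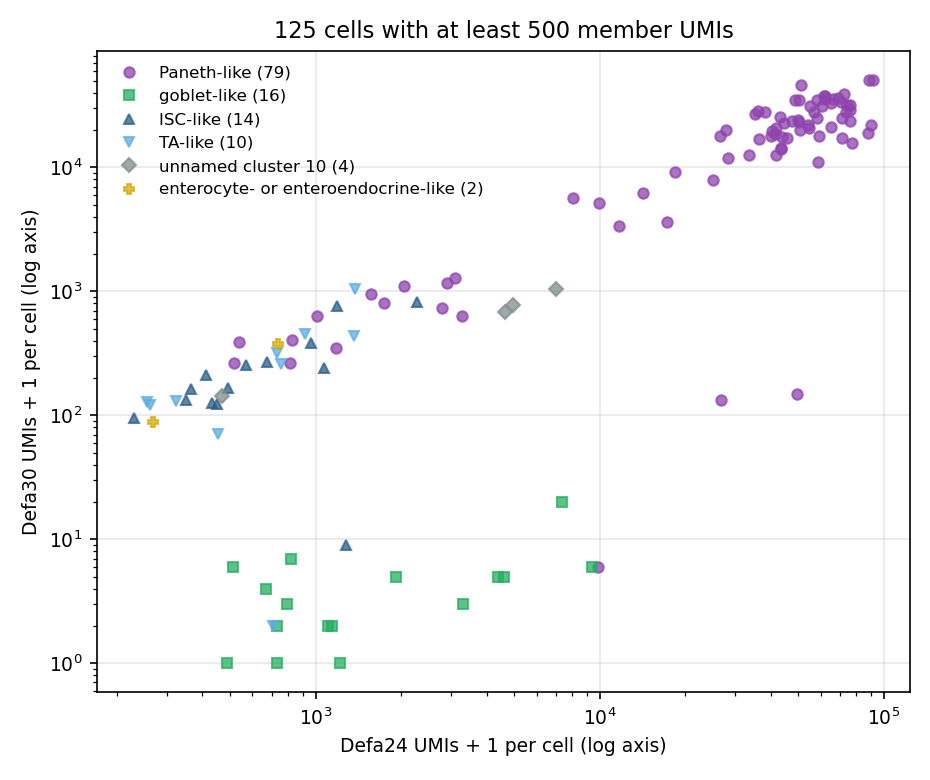
Defa30 against Defa24 UMIs, each plus 1 and on log axes, in the 125 cells with at least 500 member UMIs, marked by cell class. The cells form separate bands, with 104 cells with Defa30 at 12.8% or more of the sum and 21 cells, 16 of them goblet-like and 3 Paneth-like, at 0.965% or less.

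Outside the Paneth-like cluster the members were found in every class, and thinly in most cells. The values that follow do not leave out the cells with at least 500 member UMIs. In enterocyte-like cells, a class that should lack them, the median was 8 to 9 member UMIs per cell, or 0.024% to 0.031% of a cell's UMIs, and in ISC-like and TA-like cells 9 to 11.5. After each cell was thinned to 21000 UMIs, leaving out 392, 276 and 429 shallower cells, 88.1% to 95.2% of enterocyte-like and 90.4% to 95.8% of goblet-like cells had a Defa24 UMI, ranges that overlap. Lyz1 differed: 74.6%, 72.3% and 78.6% of thinned goblet-like cells had a UMI, against 43.9%, 40.0% and 39.2% of enterocyte-like cells. The gap was 34.1 points on average (SD 4.62 over 3 libraries, range 30.7 to 39.4) and 19.2 points without thinning. The median was still only 2 Lyz1 UMIs in a goblet-like cell and 1 in an enterocyte-like cell.

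Over all cells outside the Paneth-like cluster, 5 of 10 members were lower in Arid3a cKO by edgeR's quasi-likelihood test, where 74 of 16616 genes were (0.445%). Gm14851 was at 15.1, 16.5 and 52.1 CPM (log2 fold change -1.68, SE 0.10, adjusted p = 0.00038). Defa29 was at 18.3, 20.7 and 55.9 CPM (-1.48, SE 0.11) and Defa30 at 96.8, 95.6 and 206 CPM (-1.05, SE 0.083). Mptx2 was at 3.03, 2.79 and 7.26 CPM and Gm7861 at 7.74, 9.46 and 17.8 CPM. Gm14851, Defa29 and Defa30 also had a log2 ratio to WT of -1 or lower in both Arid3a cKO libraries, which 0.331% of genes with a mean of at least 20 CPM did. Defa24 and Lyz1 were not called, and Defa17 went in opposite directions in the Arid3a cKO libraries, at 41.5 and 123 CPM beside 73.6 in WT.

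The calls moved with few cells. In an unnamed cluster of 58 cells, 3 WT cells with members at 11.8% to 18.5% of their UMIs held 34.7% of the WT member UMIs outside the Paneth-like cluster. These 3 and 1 cell of Arid3a cKO 1 were the 4 cells of that cluster with at least 500 member UMIs. Scrublet marked 2 of the 4 as doublets, and all 4 were among the 5% of cells with the highest scores. Without the 3 WT cells the WT levels were 28.3 CPM for Gm14851, 28.7 for Defa29 and 164 for Defa30, still above both Arid3a cKO libraries. Without these 3 cells edgeR called 2 members, Defa30 (log2 fold change -0.73, adjusted p = 0.013) and Gm14851 (-0.80, adjusted p = 0.023), and the same 2 without the whole cluster of 58 cells. The cells in which members reached 0.5% of UMIs (31, 38 and 47 cells) held 48.5%, 73.0% and 68.0% of the member UMIs outside the Paneth-like cluster. Without them 0 of 10 members were called, with 5 at an unadjusted p under 0.05, and the levels were 9.32, 7.01 and 14.0 CPM for Gm14851, 11.9, 9.75 and 14.1 for Defa29 and 64.3, 50.6 and 99.1 for Defa30. These removals were chosen after the values were seen, and those of the 3 cells and of the 0.5% limit pick cells by the quantity that is tested. The summed level of the 9 other Paneth markers did not show the same order, at 144, 185 and 157 CPM over all cells outside the cluster. The part of stray RNA and of doublets in the calls was not tested.

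Of 37 other alpha-defensin genes and pseudogenes, 24 had at least 1 UMI in Paneth-like cells and 18 were tested there, with 0 called by edgeR (2 at an unadjusted p under 0.05) or DESeq2 and a median log2 fold change of 0.04. The most abundant by mean CPM was Defa3 at 2587, 3648 and 4421 CPM, which shares most transcript windows with Defa17. Defa26 (3004, 3533 and 3440 CPM), Defa36 (2731, 2340 and 3145), Defa22 (3099, 1609 and 2366) and Gm15292 (1525, 1787 and 1745) followed. Over all kept cells edgeR called 0 of 18 (9 at an unadjusted p under 0.05) and DESeq2 called 1, Defa3, which had a log2 fold change of -0.61 (SE 0.12, edgeR adjusted p = 0.085) in the edgeR fit. Outside the Paneth-like cluster 3 of 10 were lower in Arid3a cKO by edgeR: Gm15292 (adjusted p = 0.021), Defa36 (adjusted p = 0.026) and Defa26 (adjusted p = 0.049), each at 0.701 to 5.58 CPM, and DESeq2 called 1, Defa36. Without the 3 WT cells edgeR called 0 of these 3 genes, with adjusted p from 0.28 to 0.69.

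Other secreted products of Paneth cells were tested in the same way. Of 13 tested in Paneth-like cells, 1 was called: Reg3b, a bactericidal lectin, fell from 296 CPM in WT to 47.5 and 12.6 (log2 fold change -3.42, SE 0.52). The 14 enterocyte markers were also lower in these Arid3a cKO cells, at 483, 463 and 1111 CPM in sum, and Reg3b was at 2429 CPM in WT cells outside the cluster. The part of either in the result was not tested. The lectin Itln1 was at 27851, 31158 and 21694 CPM and the ribonuclease Ang4 at 8012, 7241 and 5583, both higher in the Arid3a cKO libraries but not called (edgeR adjusted p = 1.00 for each). The colipase Clps, the defensin-processing protease Mmp7 and the lipase Pnliprp2 were not called. Over all kept cells 3 of 14 were called: Reg3b and Reg3g were lower (log2 fold changes -1.39 and -1.43), and the phospholipase Pla2g2a was higher at 24.6, 26.1 and 14.1 CPM (log2 fold change 0.88, SE 0.11, edgeR adjusted p = 0.012). Reg3b and Reg3g were at 2429 and 1558 CPM in WT cells outside the Paneth-like cluster and are not products of Paneth cells alone.

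Of the genes for Paneth fate and niche signals, edgeR and DESeq2 each called 0 of 19 over all kept cells, with 1 at an unadjusted p under 0.05, and 0 of 14 in Paneth-like cells, with 3 by edgeR and 0 by DESeq2. In the latter, Sox9, a transcription factor needed for Paneth cells, was at 96.7, 45.2 and 48.2 CPM, the secretory-pathway regulator Xbp1 at 49.5, 36.1 and 37.8 CPM, and the niche ligand Wnt3 at 26.4, 22.4 and 19.7 CPM. Cd24a, a surface marker of these cells, was at 306, 279 and 340 CPM and the receptor Ephb3 at 25.01, 20.8 and 11.9 CPM.

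The genes most like the summed members across 27 pairs of cell class and library were Itln1 (Pearson r = 0.986), Mmp7 (0.959), Ang4 (0.954), Pnliprp2 (0.948) and Pla2g2a (0.941), leaving aside all alpha-defensins. Itln1, Mmp7, Ang4 and Pnliprp2 are among the markers by which the Paneth-like cluster was named, so their place here is no independent result. The measure was the correlation of log2(CPM + 5), and the 27 points share libraries and are dominated by the contrast of Paneth-like with other cells. Among the members themselves the correlation ran from 0.998 for Defa24 and 0.994 for Lyz1 down to 0.921 for Mptx2 and 0.920 for Defa21. Each member is part of the sum it was compared with, and the most abundant weigh most in it.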

How the data were processed

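Mouse crypt epithelium was profiled by 10x 3′ scRNA-seq. The authors aligned and counted reads with Cell Ranger 5.0.0 and deposited raw UMI counts per gene and barcode, 1 library per matrix. The submitters' processing notes name only human builds (GRCh38 and hg19) for these mouse libraries, so the mouse build used for counting is not known here. Coordinates and sequences came from GENCODE M21 (GRCm38). Cells were integrated with Seurat 5.3.0 (3000 features, 30 components, resolution 0.3) without the members and other alpha-defensins. Clusters were named from fixed markers. Scrublet in scanpy 1.11.5 scored doublets, which were kept and removed in an alternative. UMIs were summed per library and cell set and tested with edgeR 4.0.16 (filterByExpr, TMM normalization, quasi-likelihood test, Benjamini-Hochberg over all genes, threshold 0.05), checked on simulated data. DESeq2 1.42.0 was an alternative. Ratios used a pseudocount of 5 CPM. Depth per library is given in the report. p-values rest on the spread between the 2 Arid3a cKO libraries and on a trend over genes, and the 1 WT library is assumed to vary alike. All 10 members were described. From the other lists the text names every gene called and the 5 with the highest mean CPM, and the 5 genes of most similar pattern. The members and lists were chosen with earlier results of these data known. The design describes 2 replicates per condition, and a second WT library was not analysed here.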

Additional observations from a re-analysis of the deposited data

Results flagged for a closer look

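Lyz1 had ratios to WT of opposite sign in different cells. Both Arid3a cKO libraries were above WT in Paneth-like cells (log2 ratios 0.37 and 0.69) and below WT in all other kept cells (-0.66 and -0.19), a difference of 0.95 between the mean ratios. The sign outside the Paneth-like cluster rested on 3 WT cells: without them WT Lyz1 was at 66.6 CPM, between the Arid3a cKO libraries at 61.5 and 87.1 CPM, and in enterocyte-like cells both were above WT (37.2 and 38.0 against 30.9 CPM). Defa24 also had opposite signs, 0.05 and 0.16 in Paneth-like cells against -0.75 and -0.11 in the others, a difference of 0.53. Without the same 3 cells WT Defa24 was at 494 CPM, between 457 and 711 CPM, so the common sign was lost. Neither difference was tested.

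The barcodes outside the limits on cells, which enter no test, held more Lyz1 in Arid3a cKO than in WT, with a mean of 176 CPM against 163 CPM. In the same barcodes Defa30 had 338, 382 and 509 CPM in the first and second Arid3a cKO library and in WT, and Mptx2 11.8, 11.4 and 22.9 CPM.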

How the results depend on the processing

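No paired analysis was possible because the sample labels give no pairing of Arid3a cKO with WT libraries. Over all kept cells, 0 members were called by the main test, 5 with no filter on low counts, 3 by DESeq2 and 5 after removing the 5% of cells with the highest Scrublet scores. In Paneth-like cells 0 were called under each of the 12 alternatives. Of these, a higher clustering resolution, clustering without integration and removal of Scrublet-marked cells left the same 34, 18 and 28 cells. Those alternatives repeat the main fit and could not differ from it. Outside the Paneth-like cluster the 5 calls became 9 with no filter, 2 without Scrublet-marked cells, 1 where Paneth-like meant UMIs of at least 3 Paneth markers, and, in alternatives chosen after seeing the data, 2 without the 3 WT cells, 2 without the unnamed cluster of 58 cells and 0 without cells of 0.5% member UMIs or more. The numbers of genes called ranged from 60 to 703 (116 in the main test), 2 to 34 (18) and 25 to 692 (106) in the 3 sets, and the cause was not tested. The Paneth-like share in Arid3a cKO minus that in WT was -0.0887 points, -1.82 under the rule of 3 markers, -0.305 to 0.127 points when each Arid3a cKO library was left out, and 0.0539 points with limits of 500 genes and 25% mitochondrial UMIs. The 19 genes separated in all kept cells became 57 at a log2 ratio of 0.5 and 25 to 30 without 1 Arid3a cKO library. The Lyz1 gap of 34.1 points between goblet-like and enterocyte-like cells was 19.2 points with no thinning. The Defa30 share of the Paneth-like mix was 4.07 to 5.14 points below WT with each Arid3a cKO library left out and 4.03 without the cells of almost no Defa30, both chosen after seeing the data. The small number of Paneth-like cells and the single WT library limit every comparison between genotypes.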
